A study of Arabidopsis thaliana with 6 samples.

Results

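Arabidopsis thaliana plants, 2 weeks old, of the ceh1 mutant and of its parent line, labelled wild type, were profiled on 6 single-colour Affymetrix arrays. Each genotype had 3 replicates, which the labels call biological, and p-values measure the spread between these samples. All plants shared the same conditions in the labels, namely 2 days at 4 °C as seeds and then 23 °C, 8 h of light and 16 h of darkness on half-strength MS medium, with RNA from about 20 plants. As background, ceh1 affects a plastid enzyme that makes isoprenoid precursors, and the labels name no other allele or treatment in either group. No source used here gives the hour of collection. The 6 arrays fell on opposite sides of a gap in their evening clock genes that did not follow genotype, and the arrays on each side are described here. The sides were defined by the measured log2(intensity + 2) values of 4 genes, GI, COR27, AT1G07050 and AT4G33980. Parent 3, ceh1 2 and ceh1 3 formed the high side (3 of 6 arrays), and parent 1, parent 2 and ceh1 1 the low side (3 of 6 arrays).

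The circadian clock of plants runs through sets of transcripts that peak in turn over the day. Morning factors repress the evening genes, and evening proteins in turn repress the morning genes. GI (GIGANTEA) encodes a large protein of the evening that acts in the clock and in flowering by day length. COR27 encodes a small protein whose transcript is known to peak in the evening and to be induced by cold. Clock output includes starch breakdown at night, cold-regulated genes and growth. Roles given here for genes listed by locus number alone are general background and come from no annotation in the files.

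The 4 genes that set the sides left a wide gap. Their mean was 4.34, 3.79 and 3.89 in parent 1, parent 2 and ceh1 1, and 9.19, 9.07 and 9.33 in parent 3, ceh1 2 and ceh1 3. The threshold of 7 thus lay between 4.34 in parent 1, the nearest array below it, and 9.07 in ceh1 2, the nearest above it. COR27 read 3.0, 1.70 and 1.83 on the low side, near the floor that the pseudocount of 2 sets, and 9.35, 9.37 and 9.92 on the high side. AT4G33980, a gene of the same small evening and cold-induced family, read 3.10, 2.59 and 3.25 on the low side. On the high side it read 9.02, 9.22 and 9.01. AT1G07050, which encodes a protein with a CCT domain as found in several clock proteins, was at 3.54, 3.54 and 2.98 on the low side and at 9.23, 8.43 and 9.55 on the high side. GI itself was well expressed on every array and differed least, with 7.73, 7.34 and 7.49 against 9.15, 9.27 and 8.83. Since these values made the sides, they are a description and carry no test.

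**Figure D1:**
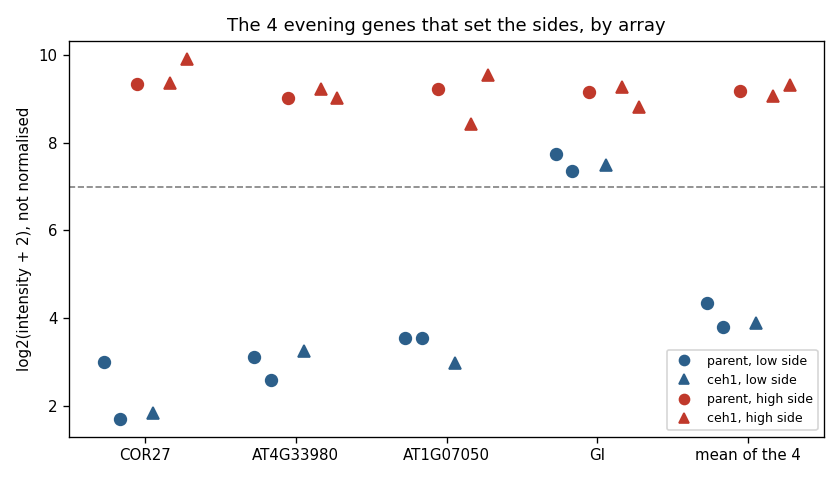
Unnormalised log2(intensity + 2) of the 4 evening genes and of their mean (vertical axis) on each of the 6 arrays, circles for the parent, triangles for ceh1, blue for the low side and red for the high side, with the threshold of 7 as a dashed line. The 3 high-side means lie between 9.07 and 9.33 and the 3 low-side means between 3.79 and 4.34.

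The level of the arrays did not follow the sides. The trimmed mean intensity was 130.0 to 171.4 on the low side and 109.9 to 175.7 on the high side, so values below are on a quantile normalised log2 scale. The 25S ribosomal RNA control read 416.9 to 1343 on the low side and 293.7 to 4598 on the high side. The ratio of 3' to 5' signal of GAPDH was 0.82 to 0.94 against 0.75 to 1.07, and that of actin 2.31 to 2.61 against 2.41 to 2.79, so each of these measures overlapped between the sides. The highest 25S reading, 4598, and the highest ratios, 1.07 and 2.79, all came from the same high-side array, ceh1 2. Of 7 root marker genes on the array only PYK10, a beta-glucosidase of roots, passed the filter on dim probe sets, and it read 9.49, 9.83 and 10.46 on the low side and 8.62, 10.62 and 10.50 on the high side. The other 6 lay between 1.27 and 4.66. The part of these measures in the results was not tested, and in bulk samples fewer cells of a type and less RNA per cell cannot be told apart.

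Differences between the sides are described here for probe sets other than those of the genes that set them. Each is given as the high minus low difference on the log2 scale with genotype as covariate, which is the mean of the difference within the parent and the difference within ceh1. Of 15918 probe sets described, with the 4 genes left out, 289 (1.82%) were at least 2-fold higher and 281 (1.77%) at least 2-fold lower on the high side with all 3 high arrays beyond all 3 low ones. At least 4-fold apart were 58 higher and 37 lower, and at least 8-fold apart 16 higher and 11 lower. Here and below, 2-fold apart means at least 2-fold with sides that did not overlap. The sides did not overlap, at any size, for 18.1% of probe sets, with 8.25% higher and 9.86% lower on the high side. Every feature of this contrast shares arrays with the rule, so no test was made and nothing is read from these shares. The median over all probe sets was −0.01. Of these, 141 higher and 125 lower probe sets had a single gene name, for 139 and 124 genes, and the other 148 and 156 had none in the annotation used. They included the widest differences in both directions, 6.79 and −3.96. The count of 570 was 1087 without ceh1 replicate 1, when the difference rests on the parent alone, and 868 without ceh1 replicate 2. Fewer arrays also make it easier for the sides not to overlap.

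In the 12 named genes with the largest higher values, the high side was brighter by 2.82 to 4.41 on the log2 scale. AT1G17665 headed them. It was near the floor on the low side at 1.85, 1.60 and 1.79 (parent 1, parent 2, ceh1 1) and stood at 6.07, 6.30 and 6.24 on the high side (parent 3, ceh1 2, ceh1 3). It passed the filter on dim probe sets through its high-side values alone, so the size of its difference, 4.41, and its place at the head rest on low values near the floor. AT5G62360, which encodes an inhibitor of the invertase and pectin methylesterase type, read 5.42, 5.28 and 6.18 on the low side and 9.79, 9.60 and 8.92 on the high side. Another gene of that type, AT1G10770, read 3.37, 2.09 and 3.12 against 6.69, 5.60 and 5.33. The low-side mean of AT1G10770, 2.86, lay below the filter level of log2 3.80. It too passed the filter through its high-side values, so the size of its difference rests on dim low values. AT5G62360 and AT1G10770 were both high on all 3 high arrays and highest in parent 3.

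Among the same 12 genes, AT1G56300, which encodes a protein with a DnaJ domain, a partner of heat shock chaperones, was bright on both sides, with 6.98, 7.12 and 7.48 against 10.59, 9.80 and 9.94. Its side means were 7.19 ± 0.26 and 10.11 ± 0.42 (SD, n = 3 each). AT2G21130, which encodes a cyclophilin, read 5.57, 5.77 and 5.79 against 9.83, 7.51 and 9.13. In that gene ceh1 2 lay about midway between the low arrays and parent 3. AT4G16146, a gene for a small regulatory phosphoprotein, had the same order, with 6.15, 5.88 and 5.85 against 10.21, 7.72 and 9.35. Of the others, AT1G11210 differed by 3.67, AT2G38465 by 3.65, AT2G23910 by 3.60 and AT2G39920 by 2.92. The side means of AT2G38465 were 3.62 ± 0.48 and 7.35 ± 0.22 (SD, n = 3 each). Its low-side mean and that of AT2G23910, 2.52, lay below the filter level of log2 3.80. Both genes passed the filter through their high-side values, so the size of their differences rests on dim low values.

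The 2 remaining genes of this group belong to the cold response by family. COR15B, which encodes a chloroplast protein that protects membranes in the cold, read 6.16, 6.22 and 7.89 on the low side and 11.70, 7.93 and 10.59 on the high side. The gap between the sides was thus only that between ceh1 1 and ceh1 2, and the difference of 3.44 was made of 5.51 in the parent and 1.37 in ceh1. AT4G30650, of a family of small membrane proteins induced by low temperature and salt, read 6.90, 6.93 and 8.59 against 10.84, 9.63 and 10.99. Here too ceh1 1 was the highest low array. AT4G33985, which lies close to AT4G33980 on the chromosome and was picked after its values were seen, read 4.53, 5.05 and 5.85 against 8.07, 6.57 and 7.90.

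Lower on the high side were genes that were mostly bright on the low side. The 12 with the largest values differed by −2.68 to −1.84. AT2G41250, which encodes a hydrolase of the haloacid dehalogenase type, read 8.53, 8.54 and 8.84 on the low side (parent 1, parent 2, ceh1 1) and 5.22, 6.90 and 6.71 on the high side (parent 3, ceh1 2, ceh1 3). AT5G48490, which encodes a lipid transfer protein, was among the brightest at 11.35, 11.21 and 10.51 against 8.76, 8.51 and 7.90. AT1G55960, which encodes a protein with a START lipid-binding domain, read 9.96, 9.98 and 9.12 against 7.52, 7.16 and 6.85. AT1G64500, which encodes a protein of the glutaredoxin type, read 7.58, 7.31 and 6.71 against 4.47, 5.48 and 4.49. In the last 3 genes ceh1 1 was the lowest of the low arrays.

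THI2.2, a gene for a thionin, a small antimicrobial peptide, read 10.40, 10.75 and 9.45 on the low side and 8.79, 7.46 and 7.40 on the high side, a difference of −1.90 with −1.78 in the parent and −2.02 in ceh1. AT1G70985 read 6.13, 5.96 and 4.61 against 4.59, 1.92 and 1.54, so that parent 3 and ceh1 1 nearly met. AT1G13650 differed more in ceh1, by −3.19, than in the parent, by −1.99, and AT5G51670 more in the parent, by −3.55, than in ceh1, by −1.30. The high-side means of AT1G70985, 2.68, and of AT5G51670, 3.48, lay below the filter level of log2 3.80. Both genes passed the filter through their low-side values, so the size of their differences rests on dim high-side values. The differences of AT5G64850, AT1G69160, AT3G01060 and AT5G22390 were −2.33, −2.04, −1.84 and −1.84. AT5G22390 had high-side values within 5.29 to 5.61 although the low side spread from 6.53 to 7.94.

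**Figure D2:**
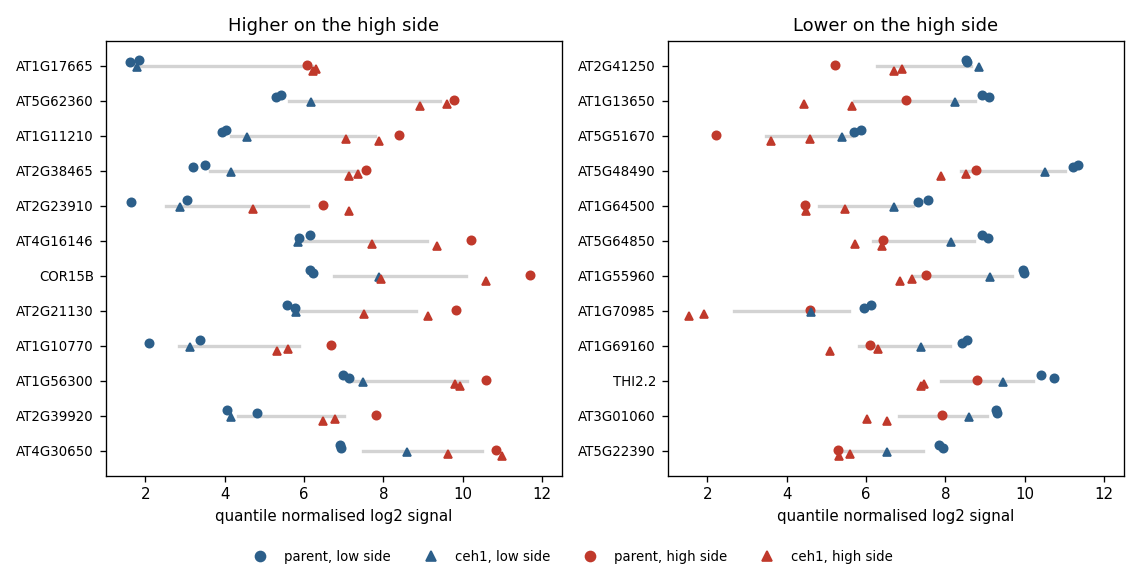
Quantile normalised log2 signal (horizontal axis) of the 12 named genes with the largest higher (left) and the 12 with the largest lower (right) values on the high side, 1 symbol per array (circles parent, triangles ceh1, blue low side, red high side) and a grey line from the low to the high mean. For COR15B the low array ceh1 1 (7.89) and the high array ceh1 2 (7.93) nearly touch.

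The clock could be checked against few other genes. None of the 14 further evening genes listed had a single-gene probe set in the annotation used, so the name of the sides rests on the 4 genes themselves. Of 22 morning genes 2 had one, and both passed the filter. AT1G69570, of the cycling DOF factors that repress flowering genes in the morning, was lower on the high side, with 7.82, 7.61 and 6.84 against 5.22, 6.49 and 4.92. Its difference of −1.81 was −2.49 in the parent and −1.13 in ceh1, and ceh1 2 lay closest to the low arrays. AT5G52660, of the REVEILLE family of MYB-like clock factors, read 6.44, 6.12 and 6.44 against 6.48, 6.53 and 6.06, so the sides overlapped and the difference was 0.02. AT2G47890, the 1 measured B-box zinc finger gene of 32 listed, a family that links light to the clock and to flowering, read 6.16, 5.70 and 6.19 against 8.10, 7.61 and 7.54.

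Both measured genes of starch breakdown were higher on the high side. PWD, the phosphoglucan water dikinase that opens the starch granule for degradation, read 7.54, 7.41 and 7.60 on the low side and 10.64, 9.21 and 10.09 on the high side. DPE1, the plastid disproportionating enzyme that acts on short glucans, read 7.79, 7.94 and 7.81 against 9.46, 8.34 and 8.28. These 2 of 17 listed genes were at least 2-fold apart, beside 1.82% of all probe sets. The difference of PWD, 2.61, was 3.16 in the parent and 2.05 in ceh1. That of DPE1, 1.05, only just reached 2-fold and was 1.60 in the parent and 0.50 in ceh1. Of the 3 measured genes of starch synthesis SBE2.2, APL3 and APL4, 0 were 2-fold apart, with a median of 0.08 and a widest difference of 0.60 in APL4, a gene for a subunit of ADP-glucose pyrophosphorylase. SBE2.2, which encodes a branching enzyme, read 9.13, 8.80 and 8.40 against 8.91, 8.23 and 7.79, so the sides overlapped. AKINBETA1, a subunit gene of the SnRK1 energy sensor kinase and the 1 measured gene of 21 known from darkness and sugar starvation, read 9.95, 9.85 and 9.33 against 8.56, 10.85 and 8.66. Its difference was −1.34 in the parent and 0.43 in ceh1.

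All 4 measured cold-regulated genes had higher values on the high side within the parent. COR15A, the paralog of COR15B, read 7.36 and 8.16 in parent 1 and parent 2 and 11.49 in parent 3. In ceh1 it read 9.92 on the low array and 8.94 and 11.02 on the high ones, a difference of 0.07 against 3.74 in the parent. COR47, a dehydrin gene, read 10.02, 10.46 and 10.26 on the low side and 11.44, 10.65 and 10.74 on the high side. LTI30, another dehydrin gene, read 5.13, 4.23 and 6.75 against 6.58, 7.79 and 7.03 and overlapped. The median of the list was 1.59, and 1 of 4, COR15B, was at least 2-fold higher with no overlap. Over all probe sets the median was −0.01 and 1.82% were. COR15A and COR15B are closely related neighbouring genes, and signal shared between their probe sets was not tested.

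The 3 measured rapid stress genes differed widely between the sides in the parent and by little in ceh1. STZ, a zinc finger repressor induced within minutes by many stresses, read 6.23 and 5.97 in parent 1 and parent 2 and 9.47 in parent 3. In ceh1 it was high on every array, at 8.96 on the low side and 9.15 and 9.47 on the high side. CML38, a calmodulin-like gene, had the same shape, with 5.60 and 5.44 against 8.02 in the parent and 8.18 against 7.98 and 9.08 in ceh1. AT4G29780, the other gene of this list, read 5.97 and 5.90 against 9.61 in the parent and 7.38 against 7.05 and 8.27 in ceh1. For STZ, CML38 and AT4G29780 the differences were 3.37, 2.50 and 3.68 in the parent, against 0.34, 0.34 and 0.28 in ceh1, and 1 of the 3, STZ, was at least 2-fold higher with no overlap, beside 1.82% of all probe sets. WRKY53, a transcription factor gene of the salicylic acid response, read 4.63 and 4.20 against 7.10 in the parent and 7.12 against 7.21 and 7.70 in ceh1. Parent 3 was within the ceh1 range for STZ and CML38, above it for AT4G29780 and just below it for WRKY53. Whether the unequal difference of the genotypes exceeds the spread was not tested, since the parent has 1 high array and ceh1 1 low array.

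Of 10 measured salicylic acid genes, WRKY53 included, 0 were 2-fold apart with no overlap of the sides, and the median difference was 0.52. In all 10 every ceh1 array lay above every parent array. Each side holds arrays of both genotypes, so the sides had to overlap and the count of 0 was fixed by genotype. WRKY53 differed by 1.51 and AT3G47480 by 1.04, but their sides overlapped. SAG101, which works with EDS1 in plant immunity, read 5.48, 5.52 and 5.32 in parents 1 to 3 and 6.67, 6.84 and 6.75 in ceh1 1 to 3, so it followed genotype and not the sides. CHI, a chitinase gene, read 3.70, 3.69 and 2.18 in the parent, against 9.47, 8.86 and 9.91 in ceh1. AT3G47480 was near the floor in parent 1 and parent 2, at 1.26 and 1.77, and read 3.70 in parent 3, below the lowest ceh1 array at 7.45. Its difference was 2.19 in the parent and −0.11 within ceh1.

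Among light, auxin and sugar transport genes the widest differences were below 0. HYH, a bZIP factor that acts with HY5 in light responses, read 5.55, 5.75 and 4.87 on the low side and 3.73, 3.88 and 3.79 on the high side. DFR, an enzyme of anthocyanin synthesis, read 5.90, 5.67 and 7.24 against 3.98, 5.56 and 7.05 and overlapped. The 4 auxin-responsive genes that passed the filter all differed below 0, with a median of −0.50, and 0 of them were 2-fold apart. Within ceh1 only HAT2 differed below 0, while GH3.3, IAA29 and WES1 differed by 0.30, 0.81 and 0.087, so for these the sign came from the single high parent array. The widest was HAT2, a homeodomain factor induced by auxin, with 8.45, 8.49 and 7.91 against 7.73, 7.85 and 6.60. Among 9 SWEET sugar transporter genes, 2 were at least 2-fold lower with no overlap, against 1.77% of all probe sets, and the median was −0.09. SAG29, which is also named SWEET15, read 7.13, 7.09 and 5.65 against 5.25, 4.99 and 2.71. SWEET2, which encodes a transporter of the vacuole membrane, read 7.62, 7.72 and 6.99 against 5.66, 6.76 and 4.96.

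More cell wall genes differed below 0 than above it. All 5 xyloglucan endotransglucosylases that passed the filter differed below 0, with a median of −0.90 and 0 of them 2-fold apart with no overlap. XTH33 had the widest difference, −1.82, but its sides overlapped, with 5.27, 4.89 and 6.96 against 3.66, 4.40 and 5.09. Of 12 expansins 9 differed below 0, with a median of −0.38 and 1, EXPB3, at least 2-fold lower with no overlap. EXPA16 had the widest difference, −1.16, with overlapping sides and all of it within the parent, at −2.40 against 0.08 in ceh1. Of 15 trichome birefringence-like genes, which act in the acetylation of wall polymers, 12 differed below 0, with a median of −0.17 and 2 at least 2-fold lower. The widest was TBL28, with 6.38, 6.22 and 5.95 against 4.81, 4.98 and 5.35. Over all probe sets 8220 of 15918 differed below 0, and 1.77% were at least 2-fold lower with no overlap.

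Enzymes that modify small molecules differed in both directions. Over all probe sets 1.82% were at least 2-fold higher and 1.77% lower with no overlap, and the counts below use the same rule. Families were matched by gene symbol and are not complete. Of 27 UDP-glycosyltransferases, 5 were at least 2-fold higher and 2 lower, with a median of 0.09. UGT85A7 had the widest difference, 1.63, and read 3.85, 2.16 and 3.82 against 4.88, 5.13 and 5.26. Its low-side mean, 3.27, lay below the filter level of log2 3.80, as did that of UGT71C3, 3.73, another of the 5 higher genes. Both passed the filter through their high-side values, so the size of their differences rests on dim low values. The lower genes were UGT74D1, at −1.24, and UGT78D2, a flavonoid glucosyltransferase, at −1.11. Among 14 cytochromes P450 matched by symbol, 1 was 2-fold lower and 0 higher, with CYP78A9 the widest of these at −1.27. AT3G44970, a cytochrome P450 gene described below, is not among them. Of 15 serine carboxypeptidase-like genes, 1 was 2-fold higher, SCPL49, with 7.61, 7.21 and 8.14 against 10.12, 8.70 and 10.18, while 11 of the 15 differed below 0. Of 11 beta-glucosidases, 1 was 2-fold higher, BGLU44, by 1.12. Of 6 tau glutathione transferases, 0 were 2-fold apart with no overlap, and the median was −0.35. GSTU23 was widest at 1.11, but its sides overlapped. Of 11 bZIP factors matched by symbol, 1 was 2-fold lower, BZIP61, with 9.29, 9.05 and 7.98 against 7.49, 7.07 and 7.01, and the median was 0.09. HYH, at −1.48 with no overlap, is not among them. BZIP34 had a wider difference, −1.91, but its sides overlapped, with 7.33, 6.97 and 5.84 against 6.37, 2.00 and 3.59.

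Photosynthesis genes differed little between the sides. Of 7 light-harvesting and photosystem genes 0 were 2-fold apart, and their differences ran from −0.24 to 0.12, with LHCB4.2 widest. Of 69 genes of the plastid genome 1 was 2-fold higher, petG, a subunit of the cytochrome b6f complex, with 6.12, 6.31 and 5.88 against 7.46, 6.60 and 8.49, and the median was −0.01. Among 4 Calvin cycle genes 0 were 2-fold apart, and SBPASE had the widest difference, −0.54. The mitochondrial genome had a median of 0.16 over 14 probe sets, with matR widest at 0.87 and 0 of them 2-fold apart. Of 3 heat shock genes that passed the filter, 0 were 2-fold apart, with a median of 0.24. AT3G02480, the 1 abscisic acid response gene that passed it, read 4.60, 7.42 and 5.04 against 3.57, 4.45 and 3.99, with parent 2 far above the rest.

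**Figure D3:**
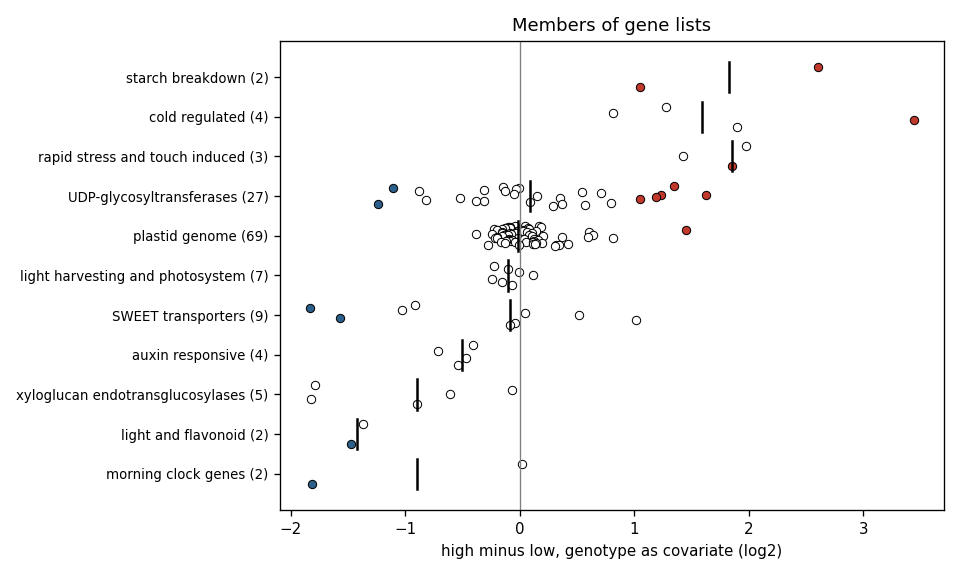
High minus low difference in log2 with genotype as covariate (horizontal axis) for each member that passed the filter in 11 gene lists, with the number of members in brackets and the list median as a bar, filled where the sides did not overlap and were at least 2-fold apart. PWD and COR15B lie farthest right, at 2.61 and 3.44, and the 7 light-harvesting and photosystem genes lie within −0.24 to 0.12.

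Parent and ceh1 arrays showed these differences to unequal degrees. Of the 289 higher probe sets, 241 (83.4%) differed more in the parent than in ceh1, with medians of 1.84 and 1.12. Of the 281 lower ones 198 (70.5%) did, with medians of −1.56 and −1.21. Over all probe sets 1665 differed at least 2-fold in the parent and 890 in ceh1, so larger parent differences were not particular to these probe sets. In the 289 higher probe sets, ceh1 1 was the low array nearest the high side in 186 and ceh1 2 the high array nearest the low side in 159. In the 281 lower ones ceh1 1 was nearest in 219. The median signal of the higher probe sets was 5.88, 5.83 and 6.36 in parent 1, parent 2 and ceh1 1 and 8.07, 7.55 and 7.84 in parent 3, ceh1 2 and ceh1 3. For the lower ones it was 7.87, 7.80 and 7.40 against 6.10, 6.0 and 5.99.

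Across all probe sets, 802 were at least 2-fold higher in parent 3 than in the mean of parent 1 and parent 2, and 863 at least 2-fold lower. Within ceh1, 467 were higher on the high side and 423 lower. Both genotypes had the higher difference in 173 and the lower one in 162. Opposite differences of at least 2-fold were found in 5 probe sets that were higher in the parent and in 33 that were lower in it. The parent difference rests on 1 high array, and the ceh1 difference on 1 low array. For 6 named genes with several probe sets, at least 1 of them 2-fold apart, all probe sets of the gene differed in the same direction, and in 2 of the 6 genes all were 2-fold apart.

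**Figure D4:**
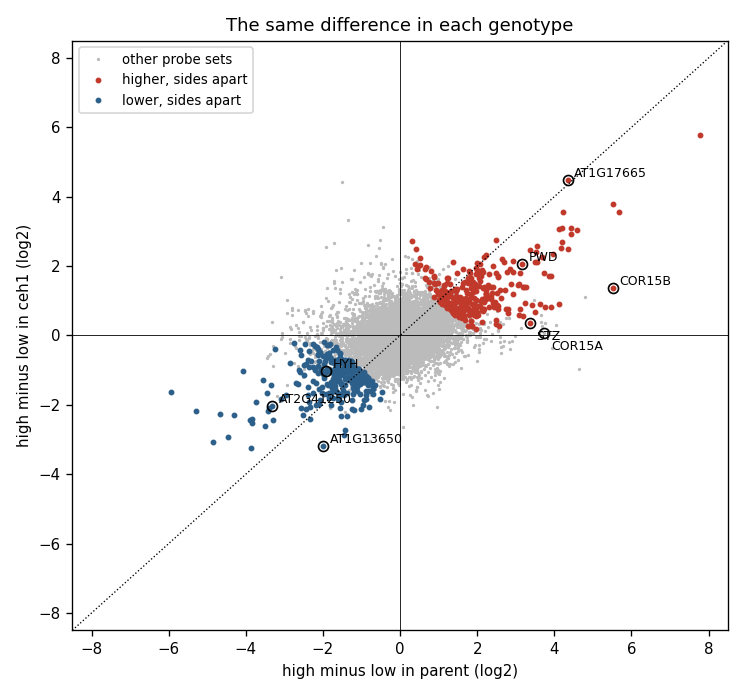
High minus low difference in log2 within the parent (horizontal axis) and within ceh1 (vertical axis) for 15918 probe sets, red or blue where the sides did not overlap and were at least 2-fold apart, with a dotted line of equality. AT1G17665, near the floor on the low side, lies close to the line (4.35 and 4.47), while STZ and COR15A lie far below it, with 3.37 and 3.74 in the parent against 0.34 and 0.07 in ceh1.

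The variation among the arrays was split by genotype and side as a description. The sides were chosen from these same arrays, so nothing is read from the share they took. Of the sum of squares over all described probe sets, genotype took 47.8%, the side after genotype 22.4%, the unequal side difference of the genotypes 10.5% and arrays of the same genotype and side 19.3%. Side and genotype overlap, since 1 of 3 parent and 2 of 3 ceh1 arrays are on the high side, and side alone took 31.3% and genotype after it 38.9%. In 41.1% of probe sets the side after genotype took more than genotype did.

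The labelled comparison of ceh1 with the parent, which the rule did not use, was tested without and with the side as covariate. Without it 600 of 15922 probe sets (3.77%) changed, 417 (2.62%) higher and 183 (1.15%) lower in ceh1 (limma, adjusted p under 0.05). With it 613 (3.85%) changed, 412 (2.59%) higher and 201 (1.26%) lower, and 488 were called both times. The fit with the side uses a covariate made from the same arrays. Without the covariate the count was 168, 152, 296 and 175 when parent 1, parent 2, ceh1 2 or ceh1 3 was left out. Not every array left out lowered it: of the counts without parent 3 and without ceh1 1, the larger was above 600. Of the 570 probe sets that were 2-fold apart between the sides, 0 were called by genotype without the covariate (limma, adjusted p), 64 had an unadjusted p under 0.05, and 13 were called with the covariate. Arrays that do not overlap by side must overlap by genotype, so few calls among them are fixed by their choice.

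The genes whose adjusted p moved most were all called with the covariate alone. AT4G12980 read 9.40, 9.46 and 7.62 in parents 1 to 3 and 7.46, 5.55 and 5.18 in ceh1 1 to 3, so it was lower on the high side within each genotype. Its log2 fold change was −2.76 ± 0.70 (SE) without the covariate and −2.11 ± 0.18 (SE) with it (limma, adjusted p = 0.0799 and 0.00338). THI2.2 had −1.88 ± 0.68 (SE) and −1.25 ± 0.17 (SE) (limma, adjusted p = 0.176 and 0.0156). UGT85A5, a glycosyltransferase gene, read 7.02, 7.10 and 8.34 in the parent, against 6.21, 7.39 and 7.42 in ceh1, with a fold change of −0.48 and −0.89 (limma, adjusted p = 0.605 and 0.0335). AT3G44970, a cytochrome P450 gene, read 5.35, 5.68 and 2.33 in the parent, against 7.17, 5.16 and 5.68 in ceh1, with 1.55 and 2.37 (limma, adjusted p = 0.388 and 0.0255).

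The size of the genotype calls is given for each side. For the 417 rises the median log2 difference of ceh1 from the parent was 1.85 between ceh1 1 and the low parents and 2.06 between the high ceh1 arrays and parent 3. For the 183 falls it was −0.96 and −1.16. At least 2-fold were 344 of the rises on the low side and 376 on the high side. Of the 183 falls, 83 were at least 2-fold on the low side and 130 on the high side. The shared direction is fixed, since these calls were made on all 6 arrays, and a difference between the sides was not tested.

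**Figure D5:**
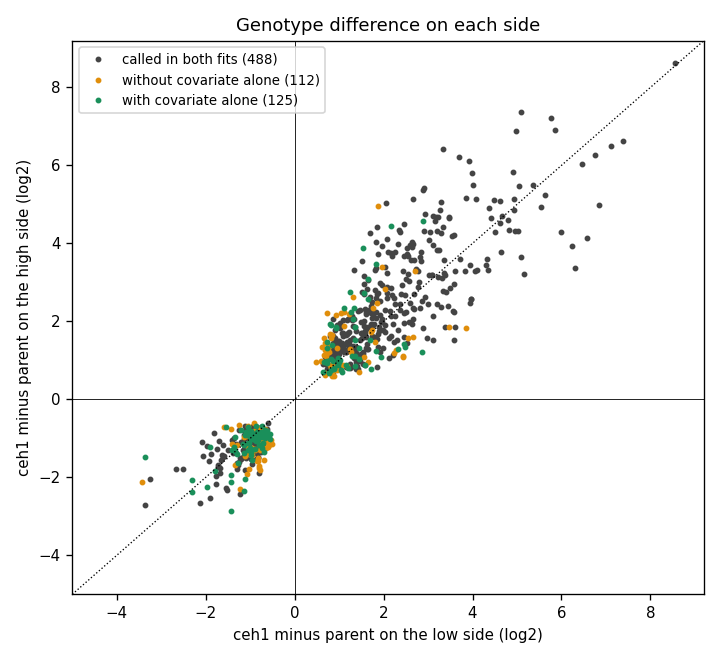
Log2 difference of ceh1 from the parent on the low side (horizontal axis) and on the high side (vertical axis) for probe sets called by genotype without or with the side as covariate, with a dotted line of equality. Called in both fits were 488 probe sets, and 112 and 125 were called in a single fit. The 417 rises have medians of 1.85 (low side) and 2.06 (high side).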

How the data were processed

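The authors deposited 1 linear intensity per probe set and array, made with MAS5 per the submitters' processing notes, with settings and version not given in the sources used here. Of 22810 probe sets, 64 controls were set aside. Of the other 22746, 13513 had a single gene in the platform annotation, 503 several and 8730 none, and 13508 matched the TAIR10.1 gene table, used for names and gene order only. Intensities were transformed as log2(intensity + 2) and quantile normalised, except for the rule, which used unnormalised values. A filter at the 30th percentile of the mean over arrays (log2 3.80) kept 15922 probe sets. Fold changes of dim probe sets are uncertain in size, and no detection calls were used.

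The side difference is the least-squares coefficient of side with genotype as covariate and was not tested. The genotype test was two-sided and used limma (version 3.58.1, R 4.3.3), with moderated variances that follow a trend in signal and Benjamini-Hochberg adjustment over 15922 probe sets. Scripts were tested on simulated data. The number of arrays limits the precision. Named genes were the 12 largest in each direction with sides that did not overlap, the clock lists, the widest member of each other list and the 4 genotype results moved most by the covariate. Other genes were named after their values were seen. The members and lists were chosen with earlier results of these data known, and 15 of 31 lists were added after values had been seen. Gene families were matched by gene symbol, so these lists are not whole families. Of 31 lists 4 had 0 genes on the array. Alternatives comprised pseudocounts of 1 and 8, other filters and scalings, each array left out, no genotype covariate, the side as covariate, a replicate block, eBayes without a trend or robust, and array weights.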

Additional observations from a re-analysis of the deposited data

Results flagged for a closer look

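For 3 of the genes given values in the text, every high-side array lay on one side of every low-side array within the parent and on the opposite side within ceh1. PYK10, the beta-glucosidase gene of roots, had a high minus low difference of −1.03 in the parent and 0.099 in ceh1, and AT2G29500, a small heat shock protein gene that was dim on all arrays, had −1.44 and 0.087. SAG101 had −0.18 and 0.12, both small beside its difference between the genotypes. The unequal side difference was not tested.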

How the results depend on the processing

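All 3 high-side arrays stayed on the high side with quantile normalised values and whichever of the 4 genes was left out. The count of 570 probe sets 2-fold apart was 979 without the filter on dim probe sets, and 572 to 1087 with an array left out. With fewer arrays it is easier for the sides not to overlap, so those counts follow a looser rule. The count of 600 genotype calls was 384 with the filter at the 50th percentile, which tests fewer probe sets, 1815 with estimated array weights, and 152 to 676 with an array left out. For the last 2 the cause was not tested. With the replicate block it was 1160, 593 of them shared with the 600. Deviations of same-numbered arrays from their group means correlated at 0.27, 0.06 and 0.47. Those of different-numbered arrays correlated at −0.40 to 0.34, highest for parent 2 with ceh1 1. The main fit did not take the numbers to pair the samples, and whether they do was not tested. Without normalization between arrays, 657 of 718 genotype calls were rises, against 417 of 600. Of 647 values of single named genes under these alternatives, 616 moved by less than 1 SD, 31 by more and 0 reversed. Of 221 list medians 215 moved by less and 6 by more. Low-side values near the floor, as in COR27 and AT1G17665, limit what their differences can show. The same holds for low-side means below the filter level, as in AT1G10770, AT2G23910, AT2G38465, UGT85A7 and UGT71C3. It also holds for high-side means below that level, as in AT1G70985 and AT5G51670.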
